A study of Homo sapiens with 6 samples.

Results

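Nonsense-mediated decay (NMD) transcripts are the spliced forms of protein-coding genes that an annotation marks as likely targets of that decay pathway. The members were the rows of the deposited transcript table whose GENCODE release 29 transcript type is nonsense_mediated_decay and whose gene is protein-coding. They numbered 15219 of the table's 251062 rows and came from 7086 of 19867 protein-coding genes. The mark is a prediction from the position of the stop codon, and no measurement of RNA stability was part of the data. Of the members, 4248 were at 0 counts in every library and 10971 had a count in at least 1.

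RNA came from 6 libraries labelled Huh7, a line established from a human hepatocellular carcinoma, given as wild type. The 3 normoxia libraries (columns C1 to C3) were from cells kept at 21% O2, and the 3 hypoxia libraries (columns C4 to C6) from cells kept for 24 h in a chamber with 1% O2. Total RNA was depleted of ribosomal RNA, so unspliced and incompletely spliced RNA can be present beside mature mRNA. Replicates are given as biological, but nothing in the labels says how the cultures were kept apart. Each p-value therefore reflects the spread between libraries of 1 line, which may be technical in part. Each library held 37621426 to 40794783 expected counts, of which the members held 846144 to 911015. Of 20 genes that mark hepatocytes, 16 were under 1 CPM (counts scaled to library size) in both groups and 7 were at 0 counts, among them AFP and APOA1, while albumin (ALB) had 6 counts over the 6 libraries. CPS1, a urea cycle enzyme, was at 2138 and 1773 CPM, so the marker check does not match the label for most markers and the libraries are called by their label only. In bulk RNA, a change in the cells present and a change in RNA per cell cannot be told apart.

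In NMD, a ribosome that stops well upstream of the last exon-exon junction leaves an exon junction complex on the mRNA. UPF1, UPF2 and UPF3 then meet the terminating ribosome, the kinase SMG1 phosphorylates UPF1, and SMG5 and SMG6 take part in the cleavage and decay that follow. Many genes for splicing factors make such transcripts through a "poison" exon that carries an early stop, a form of autoregulation. The share of a gene's RNA in these forms therefore depends on both splicing and decay.

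The lead member of a gene is its most counted NMD transcript. The stop-codon stretches below show how different members come to end early. Each runs 5′ to 3′ in the sense of the transcript and ends with the stop codon, in capitals. It begins at the start of the stop-bearing exon or, where the stop lies further in, is cut to 60 bases. These members belong to genes with large rises or falls of share, or to splicing regulators.
DNAJC5-202: gagggcacTGA
SREBF1-203: acagaaTAA
ZNF577-210: atgctgacttcttagaaTGA
ATG4A-204: attgggaaagaaagacctttTAA
SRSF3-203: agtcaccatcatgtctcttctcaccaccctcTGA
HNRNPLL-201: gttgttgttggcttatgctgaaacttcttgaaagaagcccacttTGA
LRRK1-205: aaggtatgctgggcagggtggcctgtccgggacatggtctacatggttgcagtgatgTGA
CLK1-204: atgaaattgttgatacttTAG
DNAJB6-211: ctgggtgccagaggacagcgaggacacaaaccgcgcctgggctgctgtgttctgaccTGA
HNRNPA2B1-203: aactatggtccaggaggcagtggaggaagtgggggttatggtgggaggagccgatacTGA
The sequences are from the GENCODE release 29 transcripts on GRCh38. The first 7 stop in an exon that no protein_coding transcript of the gene has: DNAJC5-202 at chr20:63931109-63931119 (plus strand), SREBF1-203 at chr17:17817583-17817591 (minus), ZNF577-210 at chr19:51844912-51844931 (minus), ATG4A-204 at chrX:108126793-108126815 (plus), SRSF3-203 at chr6:36599821-36599854 (plus), HNRNPLL-201 at chr2:38577956-38578002 (minus) and LRRK1-205 at chr15:101067262-101067321 (plus). In DNAJC5-202 and HNRNPLL-201 the extra exon is short, at 74 and 83 bases, and in SRSF3-203 it is 456 bases long. CLK1-204, at chr2:200859726-200859746 (minus), has no base outside coding exons and meets its stop inside the coding sequence of a coding transcript. DNAJB6-211, at chr7:157410049-157410108 (plus), and HNRNPA2B1-203, at chr7:26192516-26192575 (minus), use the same stop codon as a coding transcript and have 1 and 2 junctions after it. In DNAJB6-211 the exon with the stop is 5735 bases long, and 5421 bases of the transcript lie in no coding transcript's exon.

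Across all members the annotation showed the same architecture. The last junction lay more than 50 bases after the stop in 99% of members with an annotated stop, against 0.955% of protein_coding transcripts. The mark itself is a prediction from the position of the stop codon, so this contrast follows from how members were chosen. The median distance from stop to last junction was 320 bases, with a median of 3 junctions after the stop. By position, 50.2% of members stopped inside the coding sequence of a coding transcript, 27% in an exon that no coding transcript has, 10.2% in an extension of a coding exon, 9.74% at a stop that a coding transcript also uses, and 2.79% in a coding transcript's untranslated part. No base outside coding exons was found in 36.2% of members, and 58.4% had no base that no other transcript of the gene has. Reads of such members can be told from those of their neighbours by junctions only. RSEM, the program behind the expected counts, divides shared reads by a model, and the error of that division is not part of the tests here. Counts were concentrated: the 10 most counted members held 15% of all member counts, the top 100 held 36.6% and the top 1000 held 76.8%.

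The first comparison asks whether NMD transcripts took a larger part of all protein-coding gene RNA in hypoxia. Their part of the expected counts was 2.74%, 2.64% and 2.61% in normoxia and 2.87%, 3.01% and 2.94% in hypoxia. All 3 hypoxia libraries lay above all 3 normoxia libraries. The means were 2.66% ± 0.0685 and 2.94% ± 0.0693 (SD, n = 3 each), a difference of 0.274 percentage points (exact two-sided permutation test, p = 0.1, the smallest this design allows). The mRNAs of the mitochondrial genome, which have no NMD transcript and sit in this denominator, took 6.29% to 6.58% of each normoxia library and 2.22% to 2.32% of each hypoxia library. Over nuclear genes only, the NMD part was 2.97%, 2.87% and 2.83% in normoxia and 2.95%, 3.1% and 3.03% in hypoxia. The groups then overlapped, and the difference was 0.135 points (exact permutation test, p = 0.2). Over only the genes that have an NMD transcript it was 6.18% ± 0.159 and 6.48% ± 0.162, again with overlapping groups (exact permutation test, p = 0.2). These 2 denominators were chosen after seeing the data.

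**Figure D1:**
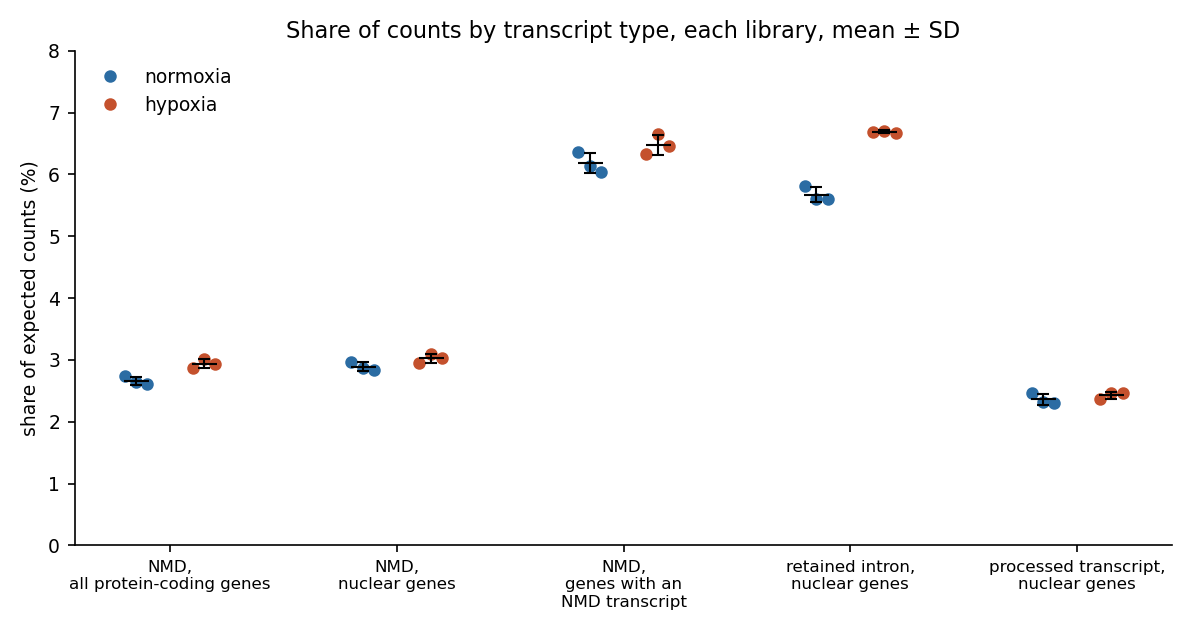
Share of expected counts (%) held by NMD, retained-intron and processed transcripts in each library (points), with the mean ± SD of 3 libraries (black). NMD transcripts of all protein-coding genes separate the groups, 2.61% to 2.74% against 2.87% to 3.01%, but over nuclear genes the groups overlap, while retained introns stay apart at 5.67% and 6.69%.

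For scale, the other noncoding forms of protein-coding genes were summed in the same way. Among nuclear genes, retained-intron transcripts, in which an intron is kept, held 5.81%, 5.61% and 5.6% of counts in normoxia and 6.69%, 6.71% and 6.67% in hypoxia, with no overlap. Processed transcripts, which have no open reading frame, held 2.36% ± 0.0937 and 2.43% ± 0.0575, with overlapping groups. Levels and shares of the groups were also exchanged in the calculation. Over 6138 genes with members the NMD part was 6.03% with normoxia levels and shares and 6.3% with hypoxia levels and shares. It was 6.44% with normoxia gene levels and hypoxia shares, and 5.86% with hypoxia gene levels and normoxia shares. The largest single contributions to the rise were from FTH1, which encodes the ferritin heavy chain (0.0286 points of the total in normoxia, 0.196 in hypoxia), and from SOD2, the mitochondrial superoxide dismutase (0.0585 and 0.169). The glucose transporter gene SLC2A1 went from 0.00786 to 0.0552 points. In the other direction, HNRNPA2B1, an RNA-binding protein gene, went from 0.0642 to 0.0188 points, and HSPA9, a mitochondrial chaperone gene, from 0.0763 to 0.0411. These contributions are descriptions without a test.

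The second comparison asks which genes changed the division of their own RNA. The NMD share of a gene is the percentage of its expected counts in its NMD transcripts. Of 7086 genes with members, 3347 had at least 10 counts in at least 3 libraries both in their NMD transcripts and in their other transcripts, and 3739 were not tested. Their shares were mostly small, with a median of 6.07% in normoxia and 6.85% in hypoxia. In normoxia 1526 were under 5% and 140 were at 50% or more. The change is given as the log2 change of the odds of NMD to other counts, from edgeR's quasi-likelihood test of the interaction of transcript pool and oxygen, which does not depend on library scaling. At an adjusted p of 0.05, 75 genes were past the threshold (2.24% of those tested), 46 with a higher share in hypoxia (1.37%) and 29 with a lower one (0.866%). The groups did not overlap in any of the 75. A gene could meet the minimum for its NMD transcripts through 1 group only, and 6 of the 75 had a group at 0 NMD counts.

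These calls stand on all 6 libraries. Without any 1 of them, 0 genes were called, or 1 when normoxia C3 was left out, which was DNAJB6, and the 34 named genes past the threshold kept their direction in each such fit. With no count filter 3 genes were called. DESeq2, with the same terms, called 345 genes, including all 75. On simulated data the edgeR test called 0% of genes with 2-fold odds changes and 7.58% of those with 4-fold changes, so a gene that is not past the threshold cannot be read as unchanged. In the simulation 66 or 67 genes were changed by each size and 3008 were unchanged. In the real data some changes near 2-fold were called, such as SOD2 (log2 odds change 1.03), so the simulated rates need not hold there. Across all tested genes, the 3 hypoxia shares were all above the 3 normoxia shares in 620 genes (18.5%) and all below in 355 (10.6%). At an unadjusted p of 0.05, 654 genes (19.5%) passed. The median log2 odds change over all 3347 genes was 0.12.

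**Figure D2:**
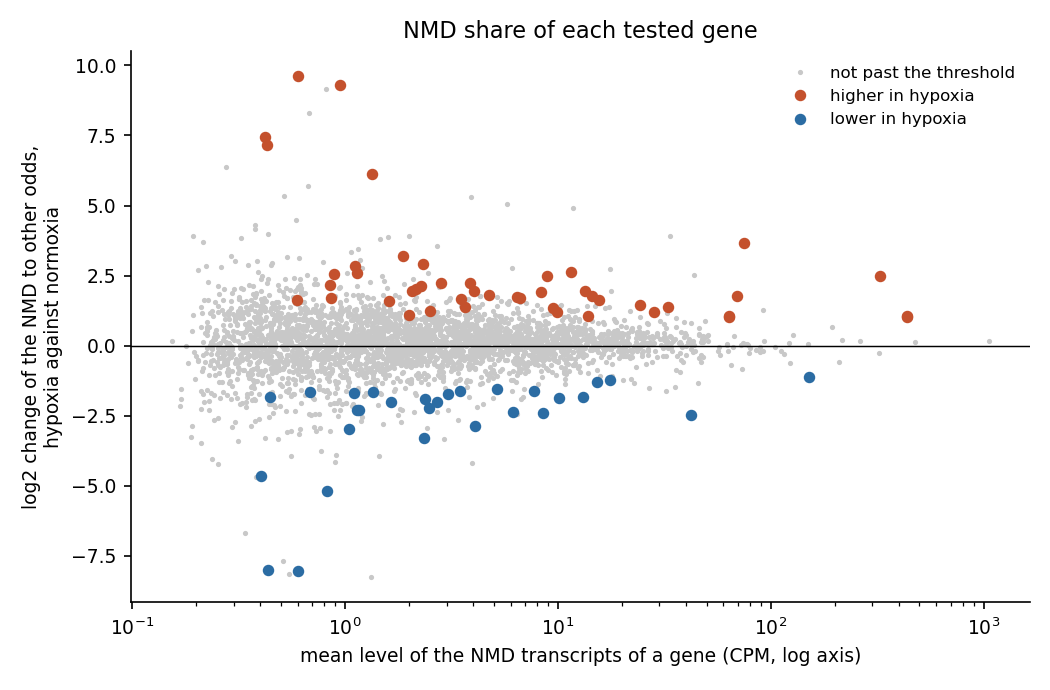
Log2 change of the NMD to other odds (hypoxia against normoxia) of each of the 3347 tested genes against the mean level of its NMD transcripts (CPM, log axis). Red and blue points are the 46 higher and 29 lower genes past the threshold, which occur at low and at high levels.

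The same fit run on other transcript types gives a scale. The retained-intron share was past the threshold in 1046 of 5771 genes (18.1%), 860 higher and 186 lower, with a median log2 odds change of 0.26. The processed-transcript share was past it in 184 of 3980 genes (4.62%), 137 higher and 47 lower. NMD shares thus had fewer calls, 2.24%, in these data. These types were not compared by a test, and their numbers of counts differ.

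Among the genes whose NMD share rose, the co-chaperone gene DNAJB6 had the smallest adjusted p. Its NMD share was 6.29%, 6.59% and 5.28% in normoxia and 45.3%, 45.5% and 43% in hypoxia. The groups lay far apart and the libraries within each lay close together. The log2 odds change was 3.65 ± 0.19 (SE, adjusted p = 0.00343), and it lay between 3.53 and 3.84 over all alternatives. Nearly all of it was DNAJB6-211, the transcript with the long stop-bearing exon described above, with 99.8% of the gene's NMD counts. NMD transcripts of DNAJB6 were at 7.22 ± 0.797 CPM in normoxia against 142 ± 5.72 CPM under hypoxia, against 112 ± 5.32 and 176 ± 3.13 CPM for its other transcripts.

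For LRRK1, which encodes a leucine-rich repeat kinase, the NMD form was already the main one. Its share was 64.5%, 64.3% and 65.5% in normoxia and 91.8%, 90.9% and 90.7% in hypoxia, a log2 odds change of 2.49 ± 0.16 (adjusted p = 0.00509). The gene's level did not pass the threshold (log2 change -0.02, adjusted p = 0.713). Its other transcripts were at 148 ± 5.35 CPM in normoxia against 36.7 ± 2.55 CPM under hypoxia, and its NMD transcripts at 272 ± 2.49 and 378 ± 22.2 CPM. Of the 11632 bases of LRRK1-205, 8290 lie outside coding exons.

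DNAJC5, the gene of the cysteine string protein, a synaptic vesicle co-chaperone, also had most of its counts in the NMD form. Shares of 60.9%, 54.3% and 60.6% in normoxia stood against 82.5%, 83.2% and 82.4% in hypoxia (log2 odds change 1.76 ± 0.21, adjusted p = 0.0285). Of DNAJC5-202, 74 bases lie outside coding exons, in the exon whose first codons are shown above. These NMD counts were at 33.7 ± 3.13 and 105 ± 5.64 CPM, while the other transcripts stood at 23.8 ± 1.95 and 21.8 ± 0.63 CPM.

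SREBF1 encodes a master transcription factor of lipid synthesis. Its NMD share was 16.1%, 14.9% and 17.3% in normoxia and 34.2%, 33% and 35.5% in hypoxia (log2 odds change 1.44 ± 0.19, adjusted p = 0.0296). The gene fell in level by 0.31 on the log2 scale (adjusted p = 9.32e-05), with other transcripts at 93.5 ± 3.13 and 59.2 ± 3.49 CPM and NMD transcripts at 17.9 ± 0.979 and 30.8 ± 0.137 CPM. ATG4A, a protease that processes the ATG8 proteins of autophagy, had shares of 12%, 9.24% and 9.35% in normoxia and 33.1%, 37.9% and 33.7% in hypoxia (log2 odds change 2.25 ± 0.28, adjusted p = 0.0296). Its paralog ATG4B went the other way, as described below.

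ZNF577, a zinc finger gene of low level, showed an NMD form that had no counts in normoxia. ZNF577-210 had 0 counts in C1, C2 and C3 and 65, 74 and 58 counts in C4, C5 and C6, which were 37.1%, 41.6% and 37.4% of the gene's counts. Against a floor of 3 counts per library (0.0754 CPM), its 1.9 CPM in hypoxia was at least 25.2-fold higher. This floor covers counting error only. The gene met the count minimum for its NMD form through the hypoxia libraries only. On the same strand, another annotated gene overlaps ZNF577-210, and reads may have been divided between them.

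SOD2, the manganese superoxide dismutase of mitochondria, combined a large NMD share with a high level. Its share was 22.4%, 23.6% and 25.5% in normoxia and 39.2%, 37.8% and 39.7% in hypoxia (log2 odds change 1.03 ± 0.15, adjusted p = 0.0367). NMD counts stood at 208 ± 17.8 CPM in normoxia against 666 ± 45.2 CPM under hypoxia, the other transcripts at 664 ± 6.6 and 1045 ± 30 CPM. SOD2-214 has no base outside coding exons, and a second annotated gene of the same name overlaps it, so the division of reads is uncertain. Over the alternatives the log2 odds change lay between 0.49 and 1.09, the lowest on counts per kilobase, where it was not past the threshold (limma, adjusted p = 0.272).

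The other 5 of the 12 largest rises, ranked among genes that met the count minimums given below, were smaller in points or lower in level. IL4R, the interleukin-4 receptor alpha chain, had shares of 6.38%, 6.18% and 6.38% in normoxia and 18.6%, 21.2% and 22.7% in hypoxia (adjusted p = 0.0227). NADSYN1, the last enzyme of NAD synthesis from nicotinic acid, went from 15.5% ± 1.15 to 29.7% ± 1.14 (adjusted p = 0.0412). ADSS1, a muscle-type adenylosuccinate synthase, went from 8.44% ± 2.53 to 26.2% ± 1.54 (adjusted p = 0.0416), and with members of support level 1 or 2 only its log2 odds change went from 1.96 to 3.25 and was not past the threshold (adjusted p = 0.182). RDH13, a mitochondrial retinol dehydrogenase, went from 10% ± 1.34 to 26.3% ± 1.57 (adjusted p = 0.0363). Another annotated gene overlaps RDH13 on the same strand, so its counts are uncertain. LEPROTL1, a membrane protein gene, had 0.302% ± 0.407 in normoxia and 15.2% ± 1.28 in hypoxia (adjusted p = 0.0367). Its NMD transcripts met the count minimum through the hypoxia libraries only. All 12 were chosen among genes with groups that do not overlap. The lead members of ADSS1 and LEPROTL1 have no base outside coding exons.

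**Figure D3:**
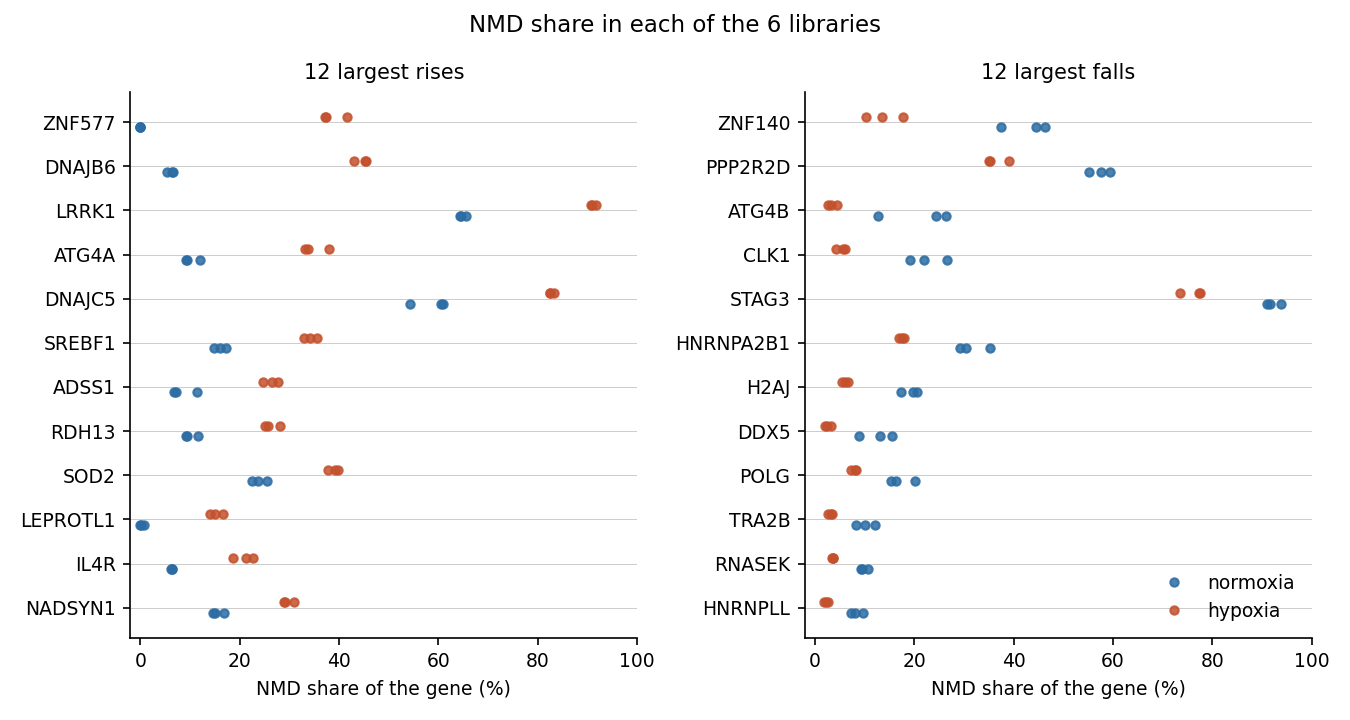
NMD share (%) of the genes with the 12 largest rises (left) and 12 largest falls (right) among those past the threshold, 1 point per library. The rule for these genes required that the 3 hypoxia points (red) and 3 normoxia points (blue) do not overlap. DNAJB6 is at 5.28% to 6.59% against 43% to 45.5%, and HNRNPLL at 7.18% to 9.67% against 1.82% to 2.69%.

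In CLK1 the fall of share went with a higher level of the other transcripts. This gene encodes a kinase that phosphorylates SR proteins, and its NMD share was 26.5%, 21.9% and 19.1% in normoxia and 4.21%, 5.59% and 6% in hypoxia (log2 odds change -2.39 ± 0.27, adjusted p = 0.0251). Its NMD transcripts were at 6.92 ± 0.725 and 10.2 ± 2.05 CPM, while the others went from 24 ± 2.59 to 183 ± 11.1 CPM, and the gene's level rose by 2.64 on the log2 scale (adjusted p = 8.52e-11). The level of CLK1-204 itself was higher in hypoxia (log2 change 0.53, adjusted p = 0.0351). CLK3 had the same direction from a lower share, 2.94%, 2.09% and 1.99% against 0.179%, 0.0339% and 0% (adjusted p = 0.0468), with other transcripts at 63.9 ± 1.14 and 173 ± 4.55 CPM. Of 4 CLK kinase genes, 3 were tested, with 2 lower and 1 not past the threshold, and in all 3 the hypoxia shares lay below all normoxia shares. Over all genes tested 0.866% were called lower and 10.6% lay below. The median log2 odds change of the 3 was -2.39, against 0.12 over all genes tested.

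PPP2R2D, a regulatory subunit of protein phosphatase 2A, and the cohesin gene STAG3 also had higher other transcripts, with NMD transcripts at nearly the same mean level in both groups. In PPP2R2D the share was 57.6%, 55.1% and 59.3% in normoxia and 39.1%, 35.3% and 35% in hypoxia (adjusted p = 0.0458). The NMD transcripts were at 17.7 ± 1.16 and 17.6 ± 1.6 CPM, and the others at 13.2 ± 0.616 and 30.5 ± 0.618 CPM. STAG3 had 92.1% ± 1.46 in normoxia and 76.1% ± 2.39 in hypoxia (adjusted p = 0.0436), with the NMD form at 10 ± 1.06 and 10.2 ± 1.24 CPM, and it overlaps PVRIG on the same strand. With only protein_coding transcripts as the other pool, STAG3 was not past the threshold (adjusted p = 0.111). POLG, the mitochondrial DNA polymerase, went from 17.2% ± 2.62 to 7.78% ± 0.539 (log2 odds change -1.29 ± 0.21, adjusted p = 0.0458), with NMD transcripts at 17.3 ± 2.86 and 13.3 ± 1.71 CPM and others at 83.2 ± 1.83 and 157 ± 9.31 CPM. With only members of unchanged length the POLG change was -0.81 and not past the threshold (adjusted p = 0.141).

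In the RNA-binding protein genes HNRNPA2B1, DDX5 and TRA2B both NMD and other transcripts had lower means in hypoxia, the NMD transcripts by more, and the gene levels fell by 0.77, 0.31 and 0.44 on the log2 scale. HNRNPA2B1, a regulator of splicing and RNA transport, had shares of 35.2%, 30.3% and 29.1% in normoxia and 18%, 17.5% and 16.9% in hypoxia (log2 odds change -1.12 ± 0.18, adjusted p = 0.0416). HNRNPA2B1-203, which has 2 junctions after the shared stop codon, was the only member and stood at 228 ± 22.7 CPM in normoxia against 74 ± 3.36 CPM under hypoxia, the others at 495 ± 24.3 and 350 ± 2.57 CPM. This member has no base outside coding exons. The HNRNPA2B1 share missed the threshold in each limma fit (adjusted p = 0.0532 to 0.0686). With only protein_coding transcripts as the other pool it also missed it (edgeR, adjusted p = 0.0531). DDX5, an RNA helicase, had 8.79%, 13% and 15.4% against 1.92%, 3.23% and 2.33% (adjusted p = 0.0297). Its NMD transcripts were at 72.5 ± 20.6 and 11.7 ± 2.65 CPM, a wide spread in normoxia, and its others at 510 ± 11.2 and 459 ± 25.8 CPM. The log2 odds change of DDX5 was -2.47, and on counts per kilobase it was -1.53 and not past the threshold (limma, adjusted p = 0.0666). TRA2B, an SR-like splicing activator, had 12.1%, 10.1% and 8.16% against 3.37%, 3.19% and 2.53% (log2 odds change -1.84 ± 0.25, adjusted p = 0.0297). Its NMD transcripts were at 21.4 ± 3.42 and 4.73 ± 0.648 CPM and its others at 191 ± 11.6 and 152 ± 7.5 CPM. With only protein_coding transcripts as the other pool, the TRA2B change was -0.90 and not past the threshold (adjusted p = 0.153).

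ZNF140, ATG4B and H2AJ had lower NMD and higher other transcripts. ZNF140, a zinc finger repressor gene, went from 42.7% ± 4.66 to 13.8% ± 3.82 (adjusted p = 0.0458), with NMD transcripts at 3.71 ± 0.301 and 1.25 ± 0.287 CPM and others at 5.04 ± 0.94 and 7.84 ± 0.711 CPM. ATG4B, the main ATG4 protease, had 24.3%, 26.3% and 12.6% in normoxia and 2.6%, 3.29% and 4.51% in hypoxia (adjusted p = 0.0412), with normoxia C3 well below the other normoxia libraries. H2AJ, a histone variant gene, went from 19.2% ± 1.62 to 6% ± 0.579 (adjusted p = 0.0296), and RNASEK from 9.77% ± 0.781 to 3.55% ± 0.205 (adjusted p = 0.0296). RNASEK shares its strand with an annotated readthrough gene, so its counts are uncertain.

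Both parts of the ratio are described for the 75 genes, which were chosen for a change of that ratio, so its direction in them is no finding. Mean CPM of the NMD transcripts was higher in hypoxia in all 46 genes with a higher share, and in 29 of them the mean CPM of the other transcripts was lower. Of the 29 genes with a lower share, 16 had lower NMD and higher other levels. Over all 3347 genes tested for share, 614 had higher NMD and lower other levels and 348 the reverse. At the gene level, tested with edgeR over 17396 genes, 19 of the 46 rose, 21 fell and 6 were not past the threshold, and 16 of the 29 rose, 10 fell and 3 did not pass. Among the 3347 genes, 33.8% rose and 47.4% fell. By library totals, 15 of the 46 rose and 25 fell, and 14 of the 29 rose and 11 fell, against 25.9% and 56.4% of the 3347.

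**Figure D4:**
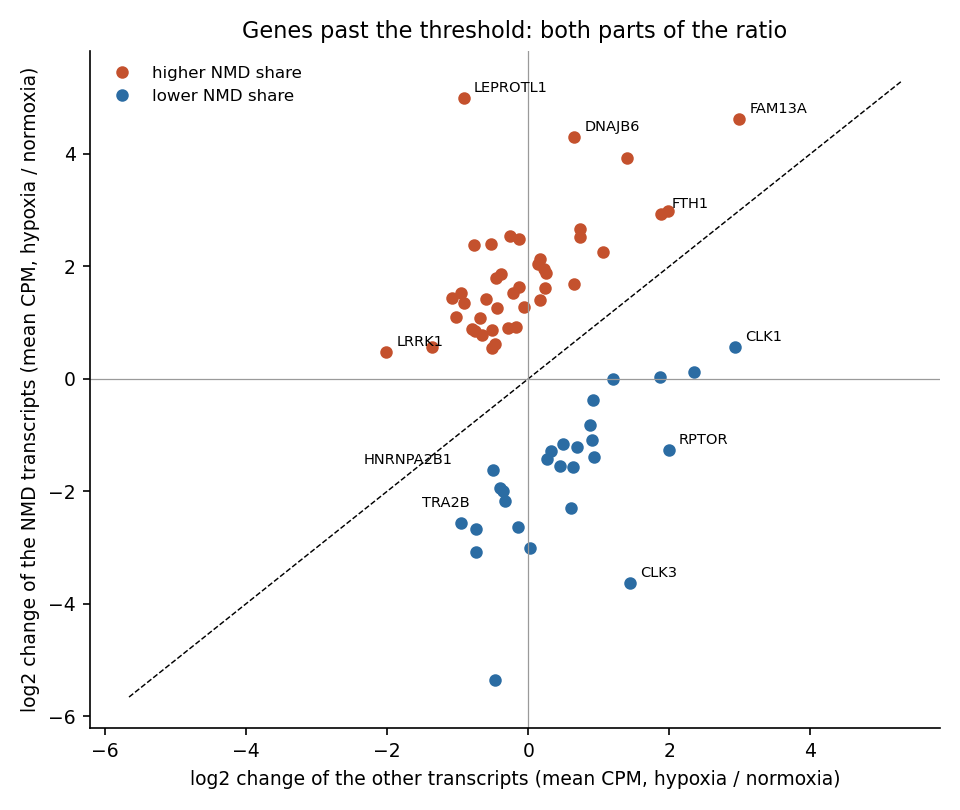
Log2 ratio of mean CPM (hypoxia over normoxia) of the NMD transcripts against that of the other transcripts, for 69 of the 75 genes past the threshold (6 with a group at 0 counts are not drawn). Points above the dashed line of equal change have a higher NMD share (red), and CLK1 lies far to the right, with other transcripts at 24 and 183 CPM.

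Splicing regulators are the classic carriers of poison exons. All 14 SR protein genes listed have members, and 12 were tested. SRSF3 rose, TRA2B fell, and the other 10 were not past the threshold. Over all genes tested, 1.37% rose and 0.866% fell. The median log2 odds change of the 12 was 0.39, against 0.12 over all genes tested. In 7 all hypoxia shares were above all normoxia shares and in 1 all were below, against 18.5% and 10.6% of all genes tested. SRSF3, an SR protein that also regulates RNA export, had 12.1%, 9.96% and 10.3% in normoxia and 21%, 28% and 23.3% in hypoxia (log2 odds change 1.39 ± 0.22, adjusted p = 0.0424). Its poison exon form SRSF3-203 held 99.2% of the NMD counts. The gene fell in level by 0.28 on the log2 scale (adjusted p = 0.00016), with NMD transcripts at 23.2 ± 2 and 42.5 ± 4.55 CPM and others at 192 ± 6.66 and 134 ± 11.9 CPM. The share call of SRSF3 missed the threshold in the limma fits on counts with a pseudocount of 1 and on counts per kilobase (adjusted p = 0.0593 and 0.0505).

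Of 34 other splicing factor genes, 22 were tested. Of these, 2 rose, 2 fell and 18 missed the threshold, against 1.37% and 0.866% of all genes tested, and the median log2 odds change was -0.21. All hypoxia shares lay above normoxia in 4 and below in 9. SF1, which binds the branch point, had 1.72%, 2.51% and 1.87% in normoxia and 10.2%, 10.2% and 10.8% in hypoxia (log2 odds change 2.50 ± 0.22, adjusted p = 0.0174). HNRNPM had 0.268%, 0.425% and 0.385% against 2.65%, 3.2% and 2.1% (adjusted p = 0.0174). HNRNPLL, a regulator of alternative splicing in lymphocytes, had 8.07%, 9.67% and 7.18% against 1.82%, 2.12% and 2.69% (log2 odds change -2.01 ± 0.26, adjusted p = 0.0296), with the 83-base extra exon shown above. The SR and other splicing factor lists thus held genes of both directions.

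Cytosolic ribosomal protein genes had small NMD shares. Of 79 genes, 32 have members and 24 were tested. Shares rose in 3 and fell in 1, against 1.37% and 0.866% of all genes tested, and 20 missed the threshold. All hypoxia shares lay above normoxia in 10 and below in 3, and the median log2 odds change was 0.19. RPS9 had 1.11%, 1.31% and 1.01% in normoxia and 4.01%, 4.42% and 4.03% in hypoxia (adjusted p = 0.0174). RPL3, whose NMD form RPL3-204 stops in an extension of a coding exon, had 0.421% ± 0.0862 and 1.05% ± 0.151 (adjusted p = 0.0442). RPL27 had 0.24% ± 0.00469 and 0.51% ± 0.0465 (adjusted p = 0.0386). The shares of RPL3 and RPL27 missed the threshold in each limma fit (adjusted p = 0.0506 to 0.0682 and 0.0528 to 0.0669). RPS9 missed it with members of support level 1 or 2 only (edgeR, adjusted p = 0.194). RPS19 went down, from 1.59%, 1.5% and 1.5% to 0.512%, 0.489% and 0.516% (adjusted p = 0.0174). These genes have many processed pseudogenes, to which reads may have been assigned.

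Genes of the low-oxygen response had NMD shares that mostly did not pass, as was so for 3272 of all 3347 genes tested. Of 42 targets of the HIF transcription factors and glycolysis genes, 18 were tested, and only ENO1 passed, in the lower direction, against 0.866% lower over all genes tested. Over the 18 genes, all hypoxia shares lay above normoxia in 8 and below in 3, and the median log2 odds change was 0.39. Over all genes tested these were 18.5%, 10.6% and 0.12. ENO1 encodes a glycolytic enolase, and its share was 0.199%, 0.17% and 0.221% in normoxia and 0.0622%, 0.07% and 0.0488% in hypoxia (log2 odds change -1.71 ± 0.20, adjusted p = 0.0285). Its other transcripts were at 1988 ± 26 and 3633 ± 33.4 CPM. None of the 3 tested genes of the HIF pathway itself passed, against 2.24% of all genes tested. HIF1AN, the asparagine hydroxylase of HIF, had 2.77% ± 0.732 and 3.2% ± 0.0604 (adjusted p = 0.674). CUL2, a scaffold of the VHL ubiquitin ligase, had 46.5%, 53.8% and 0% in normoxia and 20.9%, 0% and 0% in hypoxia (adjusted p = 0.632), and its values spread widely within each group.

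Ferroptosis, the iron-dependent cell death named in the series title, gave 13 tested genes of 37, with FTH1 higher and 12 not past the threshold, against 1.37% higher over all genes tested. FTH1 had 4.39%, 3.78% and 3.28% in normoxia and 6.64%, 8.05% and 7.87% in hypoxia (log2 odds change 1.04 ± 0.17, adjusted p = 0.0458). The share call of FTH1 missed the threshold in each limma fit (adjusted p = 0.0708 to 0.0872). It also missed it with members of support level 1 or 2 only (edgeR, adjusted p = 0.0701). The level of FTH1 was high, with NMD transcripts at 101 ± 16.2 and 771 ± 115 CPM and others at 2554 ± 21.1 and 9441 ± 402 CPM. The gene rose by 1.94 on the log2 scale (adjusted p = 4.45e-11). FTH1-210, which stops in the untranslated part of a coding transcript, held 91.1% of the NMD counts and has no base outside coding exons. FTH1 has many processed pseudogenes, and their part in its counts was not tested.

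The genes of the decay machinery carry NMD members of their own, and none of those tested passed, against 2.24% of all genes tested. With so few genes tested, having none past the threshold sets them apart in no way. Of 17 NMD factor genes listed, 8 have members and 4 were tested. RUVBL2, an ATPase that acts with SMG1, was nearest, with 1.45%, 0.993% and 1.24% in normoxia and 2.71%, 2.75% and 3.3% in hypoxia (adjusted p = 0.0586). RUVBL2 passed in 4 alternatives, among them DESeq2 (adjusted p = 0.00179). DHX34, a helicase of the pathway, had 4.74% ± 0.723 and 3.88% ± 1.04 (adjusted p = 0.633). Among 3 tested genes of the exon junction complex, MAGOHB had 24.9%, 30.2% and 21.9% against 43.1%, 59.2% and 43.3% (adjusted p = 0.119), and ACIN1 had 15.8% ± 1.03 and 18.4% ± 0.932 (adjusted p = 0.46). Of 5 tested mRNA decay enzyme genes, CNOT1 had 0.176% ± 0.113 and 1.07% ± 0.567 (adjusted p = 0.0837) and DIS3 had 20.8% ± 4.54 and 19.4% ± 2.07 (adjusted p = 0.865).

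The levels of the machinery genes moved in both directions. Of 16 NMD factor genes tested, 6 were higher in hypoxia and 10 lower, with a median log2 change of -0.35. Over all genes 36.5% were higher and 36.3% lower, with a median of 0.025. GSPT2 was at 0 counts. Scaling by library totals in place of TMM factors shifts every gene by a median of -0.15 on the log2 scale and gave 4 higher, 10 lower and 2 not past. UPF1, the central helicase, was at 121, 113 and 114 CPM in normoxia and 80.3, 82.5 and 81.1 CPM in hypoxia (log2 change -0.51 ± 0.04, adjusted p = 1.42e-06). UPF2 fell by 0.45, UPF3A by 0.58 and UPF3B by 0.43 on the log2 scale. All 4 UPF genes were thus lower, with either scaling.

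The SMG genes described did not share a direction. SMG6, the endonuclease of the pathway, was at 39.2, 37.8 and 34.8 CPM in normoxia and 77.5, 75 and 74.7 CPM in hypoxia (log2 change 1.02 ± 0.05, adjusted p = 2.91e-08). SMG9 was also higher, with a log2 change of 0.86 ± 0.07. SMG1 and SMG5 were each higher by 0.25 with TMM scaling but not past the threshold by library totals (adjusted p = 0.0912 and 0.0946). SMG8 fell by 0.25. The release factor genes were lower, ETF1 with 193 ± 6.98 CPM in normoxia against 92.4 ± 2.82 CPM under hypoxia and GSPT1 with 270 ± 6.12 and 146 ± 6.76 CPM. RUVBL1 fell by 2.05 on the log2 scale (adjusted p = 6.11e-11).

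Within the exon junction complex, which splicing leaves on mRNA, 4 of 10 genes were higher, 5 lower and 1 not past the threshold, and by library totals 2 were higher, 5 lower and 3 not past. EIF4A3, the helicase that anchors the complex, was at 82.4 ± 0.871 and 188 ± 4.04 CPM, and CASC3 at 116 ± 0.709 and 190 ± 4.58 CPM. The partner genes MAGOH and MAGOHB fell by 0.56 and 1.02 on the log2 scale, and RNPS1 by 0.82. RBM8A, their dimer partner, was higher by 0.15 with TMM scaling (adjusted p = 0.0101) and differed by -0.01 by library totals. Of 16 mRNA decay enzyme genes, 5 were higher, 8 lower and 3 not past, and by library totals 3 were higher, 10 lower and 3 not past. The shares over all genes, 36.5% and 36.3% with TMM scaling, were 29.9% and 42.7% by library totals. The deadenylase genes CNOT8 and PAN2 had the largest rises, 62.3 ± 2.77 to 230 ± 7.3 CPM and 16.8 ± 0.658 to 51.4 ± 1.45 CPM.

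**Figure D5:**
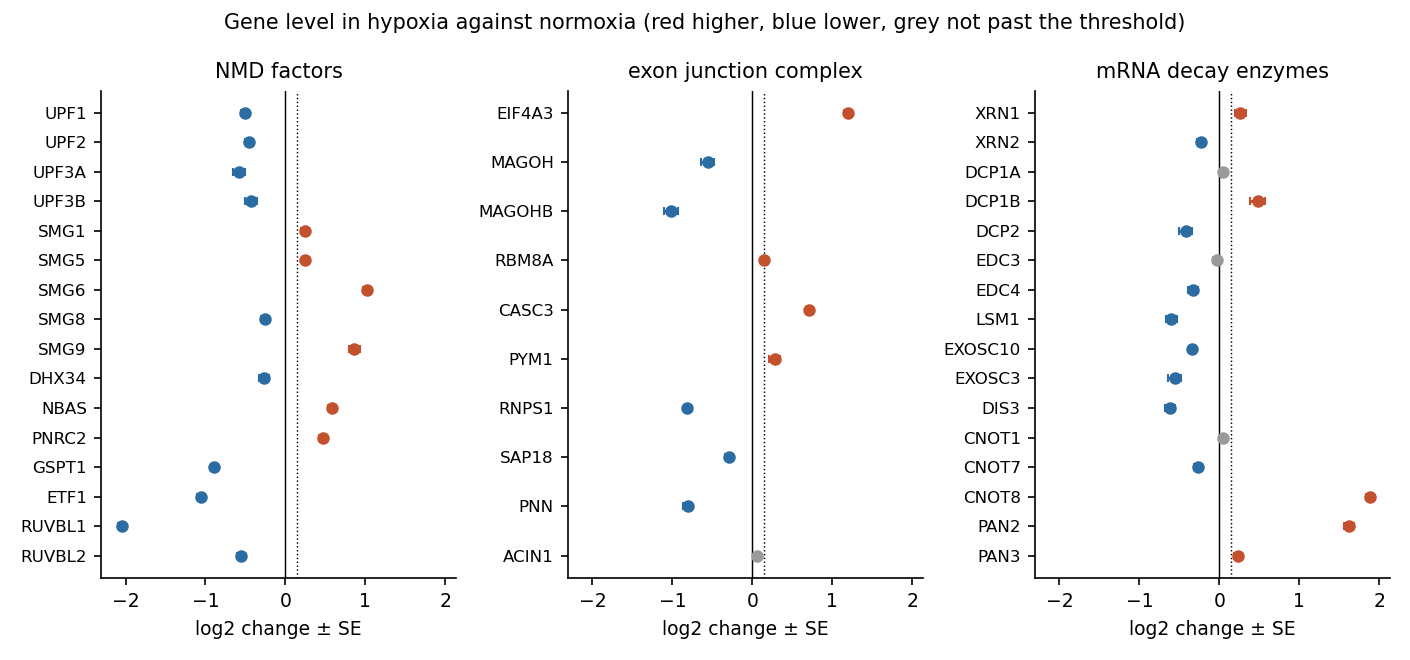
Log2 change ± SE of gene level (hypoxia against normoxia, TMM scaling) for NMD factors, the exon junction complex and mRNA decay enzymes. The dotted line marks 0 under scaling by library totals. The 4 UPF genes lie left of 0, from -0.43 to -0.58, SMG6 and SMG9 lie right, at 1.02 and 0.86, and RUVBL1 lies lowest at -2.05.

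Several stress mRNAs have been reported as NMD substrates through upstream reading frames or other features, and most are not members, because their annotated transcripts are coding or noncoding. Of 17 such genes, 9 were higher in hypoxia, 7 lower and 1 not past the threshold in gene level, with either scaling, against 36.5% higher and 36.3% lower over all genes with TMM scaling. ATF4 was at 13.2 ± 1.65 and 21.8 ± 2.38 CPM, DDIT3 at 13.7 ± 0.356 and 44.2 ± 2.45 CPM, and GADD45B at 21.7 ± 0.684 and 103 ± 4.24 CPM. The noncoding snoRNA host GAS5 was lower, at 41.9 ± 1.61 and 8.59 ± 1.21 CPM. Of the 3 with a tested NMD share, none passed, against 2.24% of all genes tested. TBL2 had 26.1% ± 6.25 and 29.2% ± 3.77 (adjusted p = 0.727), and UPP1 had 21.7% ± 4.47 and 18.5% ± 4.94 (adjusted p = 0.716).

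Tested one by one rather than pooled per gene, 152 of 4769 NMD transcripts had a changed share of their gene (edgeR, 3.19%), 81 higher and 71 lower, against 2.54% of all 57576 transcripts tested. They came from 146 genes, of which 44 were also past the threshold for the pooled share, which is 58.7% of the 75 and 30.1% of the 146. Both tests use the same libraries. The overlap disregards direction: in LRRK1 the called transcript, LRRK1-207, was lower while the pooled share was higher. Lead members of several named genes missed the threshold in this test. Among them were LRRK1-205, ATG4A-204, DNAJC5-202, SOD2-214 and HNRNPLL-201 (adjusted p = 0.0688, 0.0512, 0.118, 0.108 and 0.13). Others passed, such as DNAJB6-211 (adjusted p = 7.54e-20). Some of the 152 transcripts, in each direction, were at 0 CPM in 1 group and met the count filter through the other group only. On simulated data this test called 0.308% of 52255 unchanged transcripts, so the 152 can include unchanged ones. For EIF4A2, a translation helicase gene, the tests differed, since EIF4A2-202 was at 35.3 and 3.04 CPM (adjusted p = 7.06e-13) while the gene's pooled share was not past the threshold. SRSF1-204, of the SR protein gene SRSF1, was at 0 and 9.41 CPM (adjusted p = 6.57e-10), also without a pooled call. NKTR-202 stood at 47.7 and 17.2 CPM and SNRNP70-202 at 13.3 and 3.22 CPM. These 4 transcripts were chosen after their values were seen.

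In absolute level, 593 of 4888 members kept by the count filter were higher in hypoxia and 463 lower with TMM scaling. Over all 63530 transcripts tested 16.7% were higher and 15% lower. By library totals the split turned, with 501 higher and 572 lower. The median log2 change of members was 0.005, against -0.10 for protein_coding transcripts and 0.15 for retained introns.

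The test used no feature of the lead member, and these are given for the genes past the threshold beside all tested genes. The median lead length was 1826 bases in the 46 higher, 1792 in the 29 lower and 1835 over all tested genes, and the median number of junctions after the stop was 3 in each. The share of genes whose lead member has no base outside coding exons was 36% of the 75 and 36.8% of all tested. A stop in an exon that no coding transcript has was found in 33.3% of the 75 and 21.7% of all tested, and a stop inside the coding sequence in 37.3% and 49.8%. Of the 25 genes with the former, 16 rose and 9 fell. These shares are descriptions without a test.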

How the data were processed

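The deposited table has 1 row per transcript, with its length and, for each library, the expected count and FPKM made by the authors. The submitters' processing notes name cutadapt, HISAT2, RSEM and GRCh38. Versions, annotation release and the strand setting were not given in the sources used here. RSEM's expected counts divide reads among transcripts and are the deposited values used. The 6 FPKM columns were not used.

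Rows were joined to GENCODE release 29 by transcript identifier. Of 251062 rows, 202907 matched. The 48155 unmatched rows held 6.12% to 6.39% of counts and entered no gene sum or library size. Of 15278 release 29 NMD transcripts of protein-coding genes, 15219 had a row, and 97.3% of these had the release 29 length. Symbols are current ones, and transcript names are those of the release. The column names carry C1 to C6, which match no replicate number in the labels.

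Counts were rounded. For NMD shares, NMD and other counts of each gene in the 6 libraries made 12 columns, fitted with a term per library, 1 for the NMD pool and 1 for the NMD pool in hypoxia, tested two-sided with edgeR 4.0.16 (quasi-likelihood, R 4.3.3, limma 3.58.1). Transcript shares used diffSpliceDGE, and transcript and gene levels the quasi-likelihood test with filterByExpr and TMM factors. Benjamini-Hochberg adjustment covered all features of a test, with a threshold of 0.05. SE is the size of the log2 change over the square root of F. CPM uses TMM-adjusted library sizes. These p-values do not include the error of dividing reads among transcripts.

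On simulated counts for this comparison (3208 genes), the share test called 0% of 1.5-fold, 0% of 2-fold and 7.58% of 4-fold odds changes and 0% of unchanged genes. The transcript share test (53378 transcripts) called 0% of 1.5-fold, 0% of 2-fold and 23.1% of 4-fold changes. It also called 0.308% of 52255 unchanged transcripts, so its calls can include unchanged ones. The gene level test (17039 genes) called 70.1%, 94% and 100% of 1.5-, 2- and 4-fold changes.

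The members and gene lists were chosen with earlier results of these data known. Genes named are the 12 largest rises and 12 largest falls in points among genes past the threshold with groups that do not overlap, at least 100 counts per group in the gene and 20 in its NMD transcripts, and no clone name. Up to 4 genes past the threshold per list were added (the 2 with most NMD counts where none passed), and all NMD factors for gene level. Some genes past the threshold are left out, and 1 NMD factor is not reported here or counted in its list. Other genes were chosen after their values were seen. Alternatives were DESeq2 1.42.0, limma on log ratios, other members, denominators and filters, other scalings, and leaving out each library. The nuclear-gene and NMD-gene denominators and the restriction to members of release 29 length were added after seeing the data.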

Additional observations from a re-analysis of the deposited data

How the results depend on the processing

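No paired analysis was possible because the columns carry no replicate number of the labels. The number of genes with a changed NMD share depended strongly on the test and filter. It was 75, against 345 with DESeq2, 134 with 50 counts in at least 3 libraries, 3 with no count filter, 42 with a difference of at least 5 points required, and 0 to 1 when 1 library was left out. Other alternatives gave 53 to 104. With only protein_coding transcripts as the other pool, 70 were higher and 30 lower. Single-transcript share calls were 152, against 467 with limma voom and diffSplice and 137 to 166 without 1 library. Transcript level calls were 1056, against 750 to 895 without 1 library. Machinery gene calls were 38 (15 higher, 23 lower), against 34 by library totals (9 higher, 25 lower) and 37 to 38 without 1 library.

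The library-wide difference of 0.274 points was 0.359 for length-scaled counts, 0.347 with only protein_coding and NMD transcripts in the denominator, 0.134 for support level 1 or 2 and 0.135 for nuclear genes. Without 1 library it was 0.240 to 0.312. Of 34 named genes past the threshold, none reversed in 530 alternative fits, and 271 of these fits were no longer past it, 203 of them from leaving out 1 library. Limma on counts per kilobase lost 14 calls, SREBF1, NADSYN1 and ZNF140 among them (adjusted p = 0.0539, 0.0929 and 0.0539). Limma on counts with a pseudocount of 1 lost 9, NADSYN1 and PPP2R2D among them (adjusted p = 0.0509 and 0.0541). Of 10 named genes not past it, RUVBL2, MAGOHB and CNOT1 passed in 7 alternative fits in all. MAGOHB turned to -0.580 with support level 1 or 2 only, and DIS3, at -0.112, ranged from -0.266 to 0.105 without 1 library, the latter without normoxia C1, none past the threshold. The cause of these differences was not tested. The precision differed with depth: the median SE of the log2 odds change was 0.627 for genes with under 50 NMD counts per library and 0.249 for those with 200 or more. Of the former 1.56% were past the threshold and of the latter 3.66%.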

Other observations

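Other genes past the threshold for their NMD share, chosen after their values were seen, are given as values. MAFK, a small Maf transcription factor gene, had an NMD share of 15.2%, 16.1% and 14.8% in normoxia and 26.2%, 28.2% and 26.1% in hypoxia (adjusted p = 0.0436), while the gene's level rose by 2.19 on the log2 scale. CD44, a hyaluronan receptor gene, had 15.4%, 14.3% and 14% in normoxia and 24%, 28.7% and 26.1% in hypoxia (adjusted p = 0.0458). BCLAF1, an RNA-processing factor gene, had 6.34% ± 0.796 and 18.8% ± 1.95 (n = 3 each). RPTOR, a subunit of the growth-control complex mTORC1, went down from 5.45% ± 1.04 to 0.588% ± 0.19, with its other transcripts at 58.1 and 231 CPM.

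The histone gene H4C8 had an NMD share of 2.56%, 2.49% and 2.7% in normoxia and 14.3%, 14.1% and 13.6% in hypoxia (adjusted p = 0.00509), at an almost constant level of its other transcripts, 132 and 120 CPM. H4 genes are near-identical copies, so its reads may have been divided among them. MLXIPL, a glucose-responsive transcription factor gene, was at 0% in the 3 normoxia libraries and at 26.1%, 39.2% and 57.6% in hypoxia (adjusted p = 0.048), from a gene with few counts. Its NMD transcripts met the count minimum through the hypoxia libraries only.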
